A study of Mus musculus with 6 samples.

Results

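The lysyl oxidase family was examined in primary mouse renal fibroblasts that were grown either alone or in coculture with Th17 cells, the helper T cells that make interleukin-17. Its 5 genes, Lox, Loxl1, Loxl2, Loxl3 and Loxl4, were taken by gene symbol from a table of 34745 genes. All 5 were listed once and all 5 passed the filter on low counts, among 13088 genes tested. With Th17 cells the transcripts of Lox, Loxl3 and Loxl4 rose and those of Loxl1 and Loxl2 fell, so that the family total rose while its make-up shifted toward Lox.

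The fibroblasts came from digested kidney of wild-type (WT) mice. There were 3 libraries of untreated fibroblasts cultured alone and 3 libraries of fibroblasts kept for 24 h under Th17 cells seeded in a porous insert, with no other treatment or allele in either group. The study used this coculture to examine how Th17 cells affect fibroblasts in kidney fibrosis. The Th17 cells had been induced from splenic CD4+ T cells with antibodies and cytokines, and only the fibroblasts below the insert were collected. The study kept Balb/c mice. Their age and sex were not given in the sources used here, nor was it stated whether lone wells carried an empty insert. Nothing in these sources ties a library to its own culture or animal, so p-values measure only the spread among these libraries, which may be technical.

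Lysyl oxidases are secreted enzymes that need copper. They oxidize lysine and hydroxylysine side chains of collagens and elastin to aldehydes, which then condense into the covalent cross-links that stiffen matrix fibers. Lox and Loxl1 are made as proenzymes whose propeptide is removed outside the cell, whereas Loxl2, Loxl3 and Loxl4 carry scavenger receptor cysteine-rich domains ahead of the catalytic part. In kidney, as in other organs, cross-linked collagen is a feature of scarred tissue.

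What the family shares is the catalytic end of the protein. The coding sequence of its copper-binding stretch is shown because copper is needed for activity and because the stretch shows which members are closest here. Each stretch is 33 bases long, written 5′ to 3′ on the coding strand with the codons of 4 histidines in capitals. In each gene it is split by an intron, so the position given (build GRCm38, GENCODE annotation) spans more than the coding bases. Loxl1 has it at chr9:58293720-58294381 on the minus strand, Loxl2 at chr14:69682316-69689037 on the plus strand, Loxl3 at chr6:83049995-83050125 on the plus strand and Loxl4 at chr19:42598807-42599899 on the minus strand.
Loxl1: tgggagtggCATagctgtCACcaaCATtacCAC
Loxl2: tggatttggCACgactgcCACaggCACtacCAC
Loxl3: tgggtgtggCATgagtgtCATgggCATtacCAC
Loxl4: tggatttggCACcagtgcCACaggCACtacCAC
The Lox stretch is not printed here. It matched that of Loxl1 at 32 of 33 bases and at all 11 residues, and Loxl2 matched Loxl4 at 31 of 33 bases and at 10 of 11 residues. The other 8 pairs shared between 63.6% and 75.8% of bases and 8 of 11 residues each. Both close pairs held 1 gene that rose and 1 that fell with Th17 cells, as the values below show.

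Total counts lay between 12050529 and 13209581 per library, and 3 counts, taken as the floor, equaled 0.223 to 0.254 CPM (counts per library total, set to a shared scale by TMM factors). Of 8 fibroblast markers, 7 were tested, of which 2 (Dcn and Pdpn) were higher and 5 were lower with Th17 cells. The call of Pdgfrb, among the lower ones, was lost without any 1 of the lone libraries. The last, Dpt, had 0.856 ± 0.0712 CPM in lone fibroblasts (SD, n = 3) and 0 counts with Th17 cells, and Lum had 7.47 ± 0.382 CPM alone and 3.15 ± 0.182 CPM with Th17 cells. The 9 T cell markers summed to between 2.02 and 3.32 CPM in lone libraries and between 2.12 and 3.35 CPM in cocultured ones. Most of this sum was Trac, with 2.64 ± 0.944 CPM alone and 2.69 ± 0.496 CPM with Th17 cells. Trac was the only T cell marker with enough counts to test, and it was not called. Cd3d, Il17a, Il17f and Ccr6 were at 0 in all 6 libraries. The 6 macrophage markers summed to between 57.1 and 60.0 CPM alone and between 19.9 and 21.1 CPM with Th17 cells. Of these, 4 of 5 tested were lower, Cd14 was not called, and Adgre1, a defining marker, reached 0 counts with Th17 cells. The 5 endothelial markers summed to between 6.79 and 7.52 CPM alone and between 1.60 and 2.75 CPM with Th17 cells. Of these, Kdr was lower, from 5.55 ± 0.437 to 0.126 ± 0.0415 CPM. Pecam1, also tested, was not called (1.24 ± 0.523 against 1.32 ± 0.157 CPM). Too low to test were Tek (0.215 against 0.615 CPM) and Cdh5 (0.233 against 0.104 CPM), and Emcn was at 0 in all libraries. No epithelial marker had enough counts to test. The part of macrophage and endothelial RNA in the values of the lysyl oxidase family was not tested.

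Of the 5 members, 3 were called higher and 2 lower by edgeR's quasi-likelihood test with a Benjamini-Hochberg adjusted p below 0.05 over all genes tested. Of all genes tested, 17.1% were called higher and 20.0% lower under that rule. CPM did not overlap between the groups for any of the 5 members, which was also so for 50.4% of all genes tested. The study also asked for more than a 2-fold change, a threshold passed by Loxl1 and Loxl3, 2 of 5 members beside 11.6% of all genes tested. The absolute log2 fold changes of the members were moderate for this comparison, with between 10.02% and 16.01% of tested genes changing by more. The median log2 fold change of all genes tested was 0.00. Because these are bulk libraries, fewer cells of a type and less RNA per cell cannot be told apart.

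Lox (ENSMUSG00000024529, chr18:52516069-52529867, minus strand), the founding member, was the most abundant. Its FPKM, the count scaled to gene length and library total, was 673, 620 and 665 in lone libraries and 1289, 1180 and 1230 in cocultured libraries. Every cocultured library lay above every lone one. The gene took 0.487% ± 0.0212 of all counts in lone fibroblasts and 0.919% ± 0.0406 with Th17 cells (SD, n = 3 each). By mean FPKM it ranked 45 among all genes in the lone group and 21 in the cocultured group. Its expression increased from 4974 ± 217 to 8993 ± 373 CPM (SD, n = 3 each), a log2 fold change of 0.85 (SE 0.056, 95% interval 0.73 to 0.98, edgeR adjusted p = 3.73e-06). In CPM this was the rise ranked 3 among all tested genes, although its fold change stayed below 2.

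Loxl3 (ENSMUSG00000000693, chr6:83034173-83052562, plus strand), known for its role in palate and spine development, showed the highest fold change of the family. It had 15.6, 15.3 and 16.6 FPKM in lone libraries and 33.6, 37.7 and 38.0 FPKM in cocultured libraries. The groups were well apart, with no cocultured library below 33.6 FPKM. Counts behind these values were 1140, 1097 and 1109 alone and 2447, 2613 and 2688 with Th17 cells. Expression increased from 89.6 ± 3.69 to 197 ± 13.2 CPM (SD, n = 3 each), a log2 fold change of 1.14 (SE 0.071, 95% interval 0.977 to 1.298, edgeR adjusted p = 2.69e-06). It passed the 2-fold threshold under all 15 alternative settings tried. At the end of the gene, the span of Htra2, a mitochondrial protease gene on the opposite strand, covers 1297 of its exon bases, introns of Htra2 included. Htra2 itself had between 312 and 366 counts in lone libraries and between 313 and 405 in cocultured ones, fewer than Loxl3 in every library.

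Loxl4 (ENSMUSG00000025185, chr19:42593982-42612813, minus strand) was the least abundant member. It had 5.68, 5.65 and 6.16 FPKM in lone libraries and 9.70, 11.9 and 10.6 FPKM in cocultured libraries. The cocultured libraries were all higher, and they spread more than the lone ones, with a coefficient of variation of CPM of 10.96% beside 4.65%. Counts were 402, 392 and 398 alone and 684, 803 and 727 with Th17 cells, the lowest depth in the family. Expression increased from 31.9 ± 1.49 to 56.4 ± 6.18 CPM (SD, n = 3 each), a log2 fold change of 0.82 (SE 0.096, 95% interval 0.60 to 1.04, edgeR adjusted p = 0.000168).

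Loxl1 (ENSMUSG00000032334, chr9:58287723-58313212, minus strand), which is needed to renew elastic fibers, moved the other way. It had 116, 123 and 129 FPKM in lone libraries and 63.4, 68.0 and 58.8 FPKM in cocultured libraries. Each cocultured library was below each lone one. Expression decreased from 418 ± 19.7 to 207 ± 16.3 CPM (SD, n = 3 each), a log2 fold change of −1.01 (SE 0.073, 95% interval −1.18 to −0.85, edgeR adjusted p = 6.71e-06). This is close to the 2-fold threshold, which Loxl1 passed under 10 of 15 alternative settings, whereas the call itself held in all 15. Without lone replicate 3, or without cocultured replicate 3, its fold change was below 2. The same was so with library size in place of TMM factors and with both limma fits on FPKM, which carry no TMM factors.

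Loxl2 (ENSMUSG00000034205, chr14:69609068-69695834, plus strand), which cross-links type IV collagen of basement membranes, was the second most abundant member. It had 267, 272 and 282 FPKM in lone libraries and 165, 166 and 147 FPKM in cocultured libraries. The groups did not overlap. Expression decreased from 1699 ± 41.1 to 944 ± 69.8 CPM (SD, n = 3 each), a log2 fold change of −0.85 (SE 0.064, 95% interval −0.99 to −0.70, edgeR adjusted p = 1.00e-05). The span of an antisense gene, Gm27177, covers 2245 of its exon bases, and Gm27177 had 0 counts in every library. How fragments that match both genes were assigned is not known, so these 0 counts do not show that Gm27177 was silent.

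**Figure D1:**
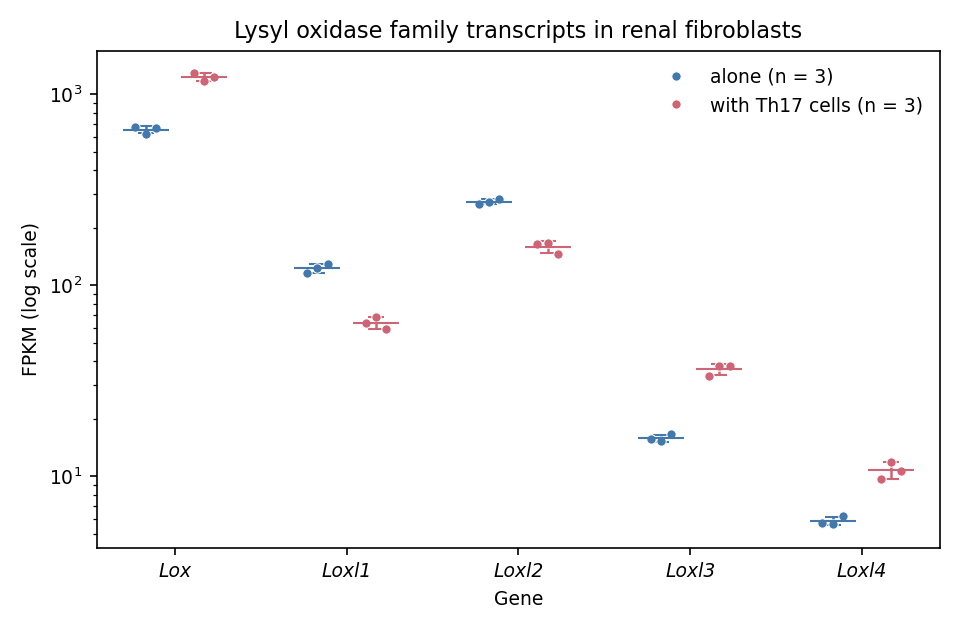
FPKM on a log scale for each family member, with points for single libraries and bars for the mean ± SD of 3 libraries alone or with Th17 cells. Lox, Loxl3 and Loxl4 sit higher with Th17 cells (for Lox 1233 against 653 on average), Loxl1 and Loxl2 sit lower (for Loxl2 159 against 274), and the order of the 5 genes is the same in both groups.

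Compared per gene length, the members kept the order Lox, Loxl2, Loxl1, Loxl3 and Loxl4 in both groups. In lone fibroblasts the mean FPKM was 653 ± 28.4 for Lox, 274 ± 7.50 for Loxl2, 123 ± 6.16 for Loxl1, 15.8 ± 0.695 for Loxl3 and 5.83 ± 0.289 for Loxl4 (SD, n = 3 each). With Th17 cells the means were 1233 ± 54.5, 159 ± 10.9, 63.4 ± 4.57, 36.4 ± 2.44 and 10.8 ± 1.13 in the same order. No neighbors in this order overlapped between libraries of a group. Among all genes, Loxl2 moved from rank 119 to 221 and Loxl1 from 289 to 604, while Loxl3 moved from 2595 to 1108 and Loxl4 from 5505 to 3685.

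The family total was higher with Th17 cells, whereas the total without Lox was lower. Summed FPKM was 1078, 1036 and 1099 in lone libraries and 1560, 1464 and 1484 in cocultured ones, a mean of 1071 ± 31.8 against 1503 ± 50.8 (SD, n = 3 each). Without Lox the other 4 members summed to 418 ± 14.4 alone and to 270 ± 14.9 with Th17 cells. The share of Lox in summed family FPKM was 62.4%, 59.8% and 60.5% in lone libraries and 82.6%, 80.6% and 82.9% in cocultured ones. The mean share of Loxl2 went from 25.6% to 10.6% and that of Loxl1 from 11.4% to 4.22%. Loxl3 went from 1.48% to 2.43% and Loxl4 from 0.544% to 0.718%, so both stayed minor components. The difference in the share of Lox, 21.1 percentage points, depended on the length by which counts were divided. It was 17.5 points with exon lengths from the GENCODE annotation, in which Lox spans 4778 bases and not the 7456 that the deposited FPKM implies.

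**Figure D2:**
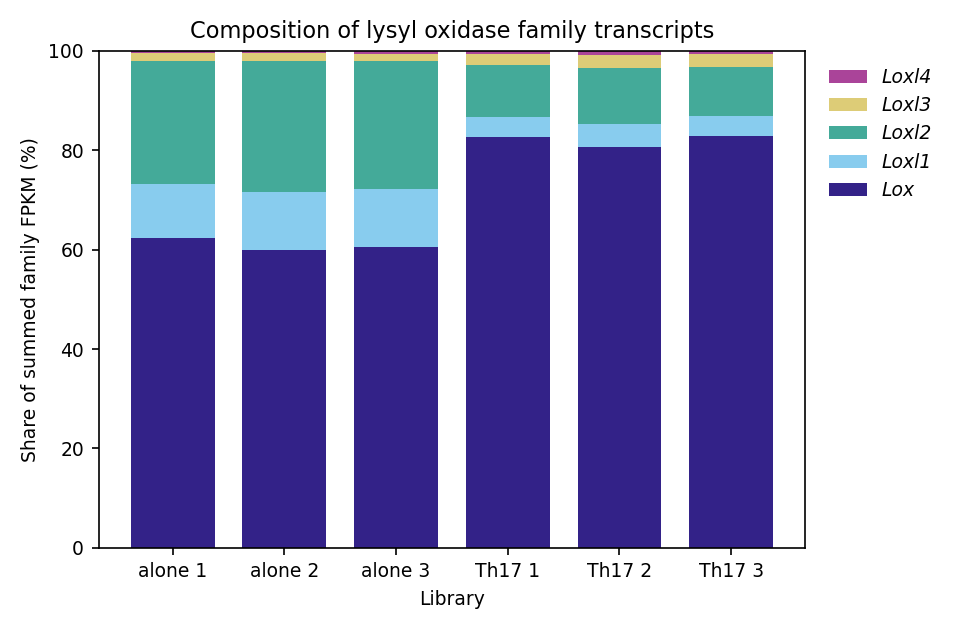
Stacked bars of each member's share of summed family FPKM in percent, with 1 bar for each of the 6 libraries. Lox fills between 59.8% and 62.4% of the lone bars and between 80.6% and 82.9% of the cocultured bars, and the Loxl1 and Loxl2 segments narrow.

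Ratios between members within a library do not depend on how libraries are scaled to each other. Lox was 5.33-fold above Loxl1 in lone fibroblasts and 19.5-fold above it with Th17 cells. Relative to Loxl2, the ratio went from 2.38-fold to 7.76-fold. These levels rest on the gene lengths behind the deposited FPKM, and with GENCODE exon lengths Lox was 8.21-fold and 30.0-fold above Loxl1 and 3.31-fold and 10.8-fold above Loxl2. The differences between groups do not depend on the lengths. On the log2 scale the ratios differed between groups by 1.87 (SE 0.103) and 1.70 (SE 0.082). The ratio of Lox to Loxl3 was 41.2-fold alone and 33.9-fold with Th17 cells, a log2 difference of −0.28 (SE 0.096). Between Lox and Loxl4 the ratio was 112-fold and 115-fold, a log2 difference of 0.04 (SE 0.130), and the libraries of the groups overlapped. Loxl1 and Loxl2 also moved unequally, with a log2 difference of −0.17 (SE 0.033) in their ratio, and the ratio of Loxl3 to Loxl4 differed by 0.32 (SE 0.056). Of 10 pairs compared, 9 did not overlap between groups. Each of these had a two-sided exact permutation p of 0.1, the smallest that 3 against 3 libraries allow, and 0.111 after adjustment over the 10 pairs. For Lox to Loxl4 the exact p was 0.8. With 3 libraries in each group this exact test therefore cannot reach 0.05.

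**Figure D3:**
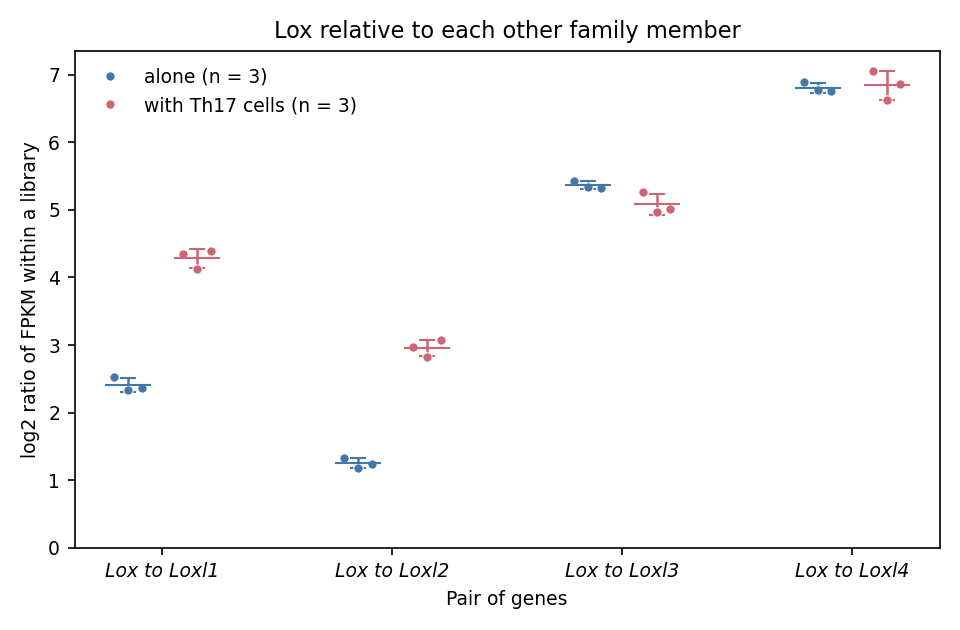
The log2 ratio of Lox FPKM to that of each other member within a library, with points for libraries and bars for the mean ± SD of 3 libraries alone or with Th17 cells. The mean ratio to Loxl1 is 2.41 alone and 4.28 with Th17 cells and that to Loxl2 1.25 and 2.96, while that to Loxl4 is 6.81 and 6.85 with overlapping libraries.

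Genes whose pattern over the 6 libraries was most like that of each member were found by the root mean square difference in centered log2 CPM, among 9739 genes with a mean of at least 100 counts. For Lox these were Ate1 (0.029), Pacsin3 (0.036) and Hmga2 (0.040). For Loxl1 they were Fbln2 (0.029), an elastic fiber glycoprotein, Asap3 (0.032) and Man2b1 (0.038). For Loxl2 they were Emilin2 (0.020), an extracellular glycoprotein, Lamc1 (0.024), the laminin γ1 chain, and Col4a1 (0.028), a type IV collagen chain. For Loxl3 they were Cntnap1 (0.034), P2ry2 (0.046) and Zc3h12a (0.061), and for Loxl4 Ank (0.051), Pla2g15 (0.052) and Zbtb40 (0.063). With 3 libraries in each of 2 groups, such likeness mostly reflects a similar difference between the groups. Col4a1, for example, had a log2 fold change of −0.84 beside −0.85 for Loxl2.

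Most tested substrates of these enzymes fell with Th17 cells. Of 12 genes for fibrillar and type IV collagen chains and elastin, 11 were tested, of which 10 fell and 0 rose, with a median log2 fold change of −1.27. Of all genes tested, 20.0% were lower. Col1a1, the main chain of type I collagen, had 15730, 15202 and 14284 CPM alone and 6500, 6522 and 5663 CPM with Th17 cells (log2 fold change −1.27, SE 0.069, edgeR adjusted p = 1.07e-06). Col3a1, the type III collagen chain, had 4385, 4349 and 4358 CPM alone and 998, 1050 and 835 CPM with Th17 cells, a log2 fold change of −2.18. The groups were well separated for both genes. Log2 fold changes were −2.09 for Col11a1, −1.48 for Col5a3 and −1.43 for Col1a2, chains of types XI, V and I. Elastin (Eln) was barely transcribed in these cells, with 0.931, 1.97 and 1.27 CPM alone and 0 counts in each cocultured library, at least 5.90-fold lower against a floor of 3 counts per library. Only Col11a2, at −0.05 (edgeR adjusted p = 0.875), was not called. Lox, Loxl3 and Loxl4 rose in the same libraries in which transcripts of their substrates fell.

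Of 19 genes for the enzymes and chaperones that modify lysine and proline in collagen inside the cell, 18 were tested, with 11 lower, 0 higher and 7 not called, beside 20.0% lower and 17.1% higher among all genes tested. The median log2 fold change was −0.43. Of the 7 that were not called, P3h2 (0.48) and Tmem38b (0.26) had values above 0. Plod2, the lysyl hydroxylase whose product forms the hydroxylysine-derived cross-links, had 1016, 1005 and 1001 CPM alone and 592, 577 and 532 CPM with Th17 cells. The groups did not overlap (log2 fold change −0.83, SE 0.058, edgeR adjusted p = 5.42e-06). P4ha3, a prolyl hydroxylase subunit, had a log2 fold change of −0.99, Plod1, another lysyl hydroxylase, −0.82, Fkbp10, a procollagen chaperone, −0.69, and Ppib, the prolyl isomerase cyclophilin B, −0.52. With library size in place of TMM factors, 2 genes of this list were called higher as well.

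Genes for propeptide removal and for matrix proteins that bind the enzymes moved in both directions. Of 15 listed, 14 were tested, with 3 higher, 8 lower and a median log2 fold change of −0.34. Among all genes tested 17.1% were higher and 20.0% lower. Bmp1, the main protease that removes the propeptides of Lox and of procollagen, had 654, 688 and 679 CPM alone and 509, 554 and 496 CPM with Th17 cells. This was a decrease (log2 fold change −0.37, SE 0.060, edgeR adjusted p = 0.00117). The related protease gene Tll1 rose by 0.77, from 22.8 ± 2.38 to 39.0 ± 5.36 CPM (SD, n = 3 each). Pcolce2, which enhances procollagen cleavage, rose by 2.64 and Thbs1, the matricellular protein thrombospondin-1, by 0.53. Among the genes that fell, Fbln5, which anchors Loxl1 to elastic fibers, went from 114 ± 1.32 to 36.0 ± 3.45 CPM (log2 fold change −1.67). Adamts2, the procollagen N-proteinase, had a log2 fold change of −1.40, Ltbp4, an elastic fiber assembly protein, −1.07, Fbn1, the microfibril protein fibrillin-1, −0.69, and Fn1, fibronectin, −0.43. Postn, the matrix protein periostin, was not called (1946 ± 22.6 against 1897 ± 170 CPM, edgeR adjusted p = 0.715).

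Few genes that supply copper were called at this depth. Of 10 listed and tested, 1 was lower and 9 were not called, with a median log2 fold change of 0.08, beside 20.0% lower among all genes tested. The log2 fold changes of the 9 ran from −0.46 for Cox17 (95% interval −0.85 to −0.07) to 0.31 for Atox1 (−0.20 to 0.83). Both were named after their values had been seen. The lack of a call therefore does not show a lack of change. The 1 called gene was Atp7b, a copper pump best known in liver, at 5.46 ± 0.527 CPM alone and 2.98 ± 0.790 CPM with Th17 cells (log2 fold change −0.87, edgeR adjusted p = 0.0141), and it was named after its values had been seen. Without lone replicate 2 no gene of this list was called. Atp7a, the pump that loads copper into secreted enzymes, had 33.9 ± 1.29 CPM alone and 33.5 ± 2.07 CPM with Th17 cells (SD, n = 3 each), a log2 fold change of −0.02 with a 95% interval of −0.21 to 0.17 (edgeR adjusted p = 0.901). The sign of this value turned to positive with library size only.

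**Figure D4:**
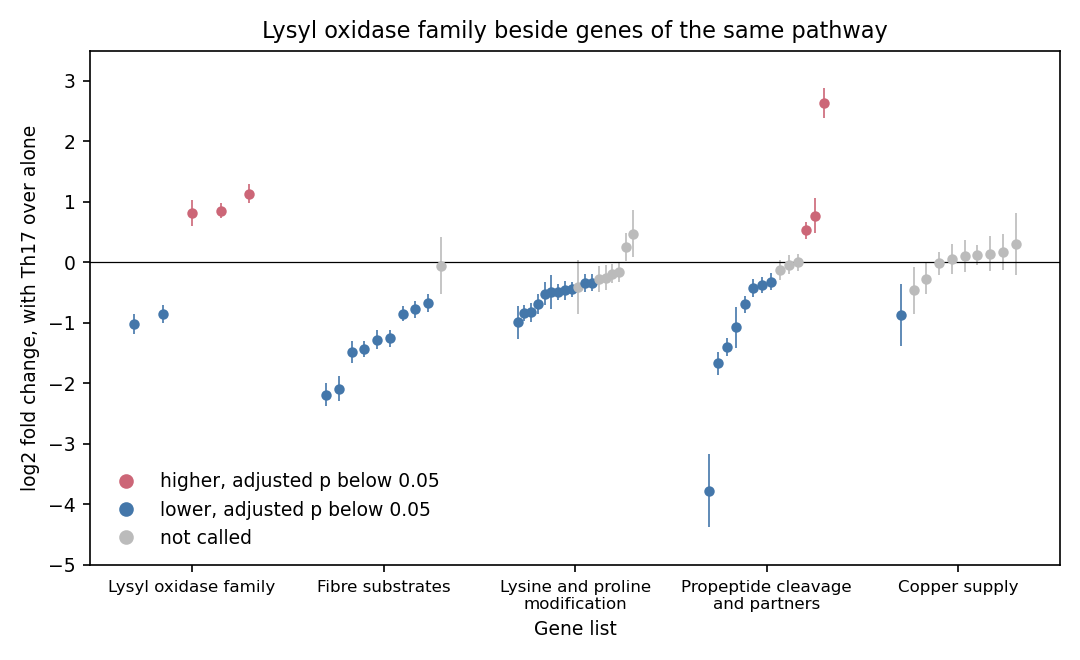
Log2 fold change with its 95% interval for tested genes of the lysyl oxidase family and of 4 related lists, in red where called higher with Th17 cells, in blue where called lower and in gray where not called; Eln, at 0 counts with Th17 cells, is left out. The family has 3 genes above and 2 below 0, whereas the called fiber substrates lie between −2.18 and −0.67. The copper supply genes lie between −0.87 and 0.31.

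In the annotated transcripts no member shared more than 2 of its 31-base words with another and the longest identical run between any pair was 32 bases, in Lox and Loxl1. Loxl2 shared 2484 of 5358 such words with 1546 genes outside the family. Loxl3 shared 458 of 4656 with 1 outside gene, while Lox shared 2, Loxl1 1 and Loxl4 0. Whether strand was used for counting is not given in the sources used here, so reads of a gene and of one overlapping it on the other strand cannot be told apart. This applies to Loxl2 and Loxl3, and to Lox, which has an annotated antisense gene over 995 of its exon bases. That antisense gene is absent from the deposited counts, so its level could not be examined. It also applies to Plod2, P3h2, Fkbp10, Ppib, Adamts2, Pcolce2, Tll1, Fn1, Fbn1 and Thbs1. The same holds for Col4a1, Eln, Aoc3, Adm, Car9, Ndrg1, Twist2, Zeb1, Dpt and Cdh5. Col1a2, Col4a1, P3h2, Tmem38b, Cox17 and Twist2 each overlap a gene on their own strand. All these overlaps are with the whole span of the other gene, introns included. Overlaps of the genes most like each member were not examined, except for Col4a1.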

How the data were processed

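RNA sequencing libraries (VAHTS kit, Illumina NovaSeq) represented 3 lone and 3 cocultured fibroblast samples. Per the study's methods, the authors used Seqtk to filter reads, HISAT2 for alignment and StringTie for fragment counts of each gene. The submitters' processing notes give HISAT2 2.0.4, StringTie 1.3.3b, edgeR and build mm10. The authors deposited raw fragment counts and, beside them, FPKM (per kilobase of gene and library total). FPKM, count and total gave 1 gene length within 1% in all 8910 genes checked, so the deposited FPKM values carry no TMM factor. Use of strand, and how fragments that match several genes were assigned, were not given in the sources used here. Of the identifiers, 34267 occur in GENCODE vM21 (GRCm38), and 99.9% of these overlap their annotated position.

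Samples were grouped by the labels' titles and treatment, and columns were mapped by sample descriptions. The counts were fitted with edgeR 4.0.16 (R 4.3.3). TMM scaling, edgeR and the limit of 0.05 on the false discovery rate follow the study's methods, whose further limit, a fold change above 2, was counted separately. The filter (filterByExpr, minimum count 10), glmQLFit and glmQLFTest over all 13088 genes and Benjamini-Hochberg adjustment were chosen here. A file row naming no gene did not occur. Total counts ranged from 12050529 to 13209581, and the biological coefficient of variation was 11.6%. Reads carried no molecular identifiers, so floors describe counting error alone. Exon lengths, overlaps and sequences were handled in Python 3.11.15 (pandas 2.3.3, with matplotlib 3.10.9 for plots).

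The members, lists and tests were chosen with earlier results of these data known. The text names all members, called genes of each related list whose mean in the higher group reached 100 counts (up to 5 in each direction by fold change), Plod2, Bmp1, Fn1, Postn, Atp7a, Col1a1, Col3a1 and Eln whatever their values, and the 3 genes most like each member. Ero1a was found under its older symbol Ero1l. Alternatives were DESeq2 1.42.0, other scaling factors, other filters on low counts, leaving out each library, a replicate block and limma 3.58.1 on log2(FPKM + 1) and log2(FPKM + 0.1). The tests were checked on simulated counts of this comparison for 13088 genes, all given 1 fixed dispersion. Changes were planted only in genes with a mean of at least 100 counts. There edgeR recovered 98% of 100 genes changed 1.8-fold and 99% of 100 changed 2.2-fold, with 14 unchanged genes called. Far fewer genes were changed than were called in the data. The simulation therefore does not give the recovery of genes with lower counts or the number of false calls in the data.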

Additional observations from a re-analysis of the deposited data

How the results depend on the processing

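All 5 members kept their direction and their call under 15 alternatives, with log2 fold changes of 0.82 to 0.92 for Lox, −1.07 to −0.94 for Loxl1, −0.88 to −0.78 for Loxl2, 1.109 to 1.201 for Loxl3 and 0.73 to 0.89 for Loxl4, and a highest adjusted p of 0.00148, for Loxl4. The difference in the share of Lox was 17.5 percentage points with summed counts, and also 17.5 with GENCODE exon lengths, an alternative added after seeing the data. The copper supply genes called numbered 2 with DESeq2 and 2 with the replicate block, and between 0 and 2 when a library was left out, with 0 without lone replicate 2. Of the Snail, Twist and Zeb genes, 4 were called with DESeq2. Between 3935 and 5196 genes were called in all. Past the 2-fold threshold were 1524 genes by edgeR and 626 by limma on log2(FPKM + 1), whose pseudocount shrinks low genes. Of called genes, 53.8% were lower with TMM factors, 44.2% with limma on log2(FPKM + 1) and 43.9% with library size only. No pairing by replicate number was visible, since deviations of same-numbered libraries correlated at 0.016, −0.025 and 0.00. With 3 libraries in each group this cannot show that the samples were unpaired. The replicate block called 4513 genes and changed no member's call.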

Other observations

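Other copper-dependent amine oxidases did not all move alike. Aoc3, the vascular adhesion protein that oxidizes soluble amines, had 73.1, 80.3 and 75.2 CPM in lone libraries and 16.7, 17.9 and 11.9 CPM in cocultured ones (log2 fold change −2.30, edgeR adjusted p = 1.97e-06). Aoc2 had 4.41 ± 0.959 and 3.95 ± 0.696 CPM (SD, n = 3 each; edgeR adjusted p = 0.623), and Aoc1 had 0 counts in every library.

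Low oxygen is known to raise Lox, Loxl2 and Plod2 transcripts in many cells. Of 15 hypoxia response genes tested, 3 were higher and 8 lower with Th17 cells (median log2 fold change −0.19), beside 17.1% higher and 20.0% lower among all genes tested. The call of Ldha, among the lower ones, was lost under 11 of 15 alternatives, and it was named after its values had been seen. Under the alternatives 7 or 8 genes of this list were called lower. Adm, the vasodilator adrenomedullin, rose by 0.79 on the log2 scale. Egln3, an oxygen-sensing hydroxylase, had a log2 fold change of 0.18 (edgeR adjusted p = 0.0332), and its call was lost under 7 of 15 alternatives. These were DESeq2, no filter on low counts, the replicate block, and leaving out lone replicate 1 or 3 or cocultured replicate 1 or 2. Pgk1, a glycolytic enzyme, had 0.17 (edgeR adjusted p = 0.044), and its call was also lost under 7 of 15 alternatives. These were DESeq2, the replicate block, and leaving out any 1 of the lone libraries or cocultured replicate 2 or 3. Only 1 gene was called higher without lone replicate 1, without lone replicate 3, without cocultured replicate 2 or with the replicate block. Lower were Car9, a carbonic anhydrase (log2 fold change −2.13), Ndrg1 (−1.78), Pdk1, a kinase that restrains pyruvate oxidation (−0.70), Ero1a, an oxidase of the endoplasmic reticulum (−0.69), and Egln1, another oxygen-sensing hydroxylase (−0.66).

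Loxl2 and Loxl3 are known to act with Snai1, a transcription factor of mesenchymal cells. Snai1 had 46.5 ± 1.71 CPM alone and 48.4 ± 12.99 CPM with Th17 cells (SD, n = 3 each; edgeR adjusted p = 0.829), and it was named after its values had been seen. Of 6 Snail, Twist and Zeb genes tested, Twist2 rose by 0.62 and Zeb1 by 0.57, and 4 were not called, beside 17.1% higher among all genes tested.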
